A study of Mus musculus with 15 samples.

Results

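The 9 Hedgehog pathway genes described here include the ligands Ihh and Dhh and the membrane proteins Ptch1, Smo and Hhip. The others are the inhibitor Sufu and the transcription factors Gli1, Gli2 and Gli3. All 9 genes were found by name among the 48709 genes in the deposited table. RNA was sequenced from pancreatic islets of 15 NOD/ShiLtJ female mice, 3 at each of 5 ages (4, 6, 8, 10 and 12 weeks). NOD mice are an inbred strain in which immune cells enter the islets before autoimmune diabetes appears. No mouse was treated and no other strain was sequenced, so every comparison is between ages within NOD; the labels give no date or batch of isolation, extraction or sequencing, and such differences between ages cannot be told apart from age. Islets were released with collagenase, separated on a density gradient and picked by hand, and each library therefore held endocrine cells with whatever other cells stayed attached. Ages are compared between different animals.

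Hedgehog ligands are secreted proteins that bind the receptor Ptch1 on neighbouring cells. Without ligand, Ptch1 keeps Smo inactive, and the Gli proteins are held back by Sufu or cut into repressors at the primary cilium. With ligand, Smo becomes active and full-length Gli proteins switch on targets that include Gli1, Ptch1 and Hhip, so these genes are widely read as markers of an active pathway. In pancreas development the pathway has to be kept off for the organ to form, and in many adult organs the ligand comes from epithelium while the Gli genes are expressed by surrounding mesenchyme.

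Promoter sequence was taken for Gli3, Smo and Sufu, which rose with age, and for Ptch1, the textbook Gli target that did not. Each line below holds the 250 bases before the RefSeq transcription start on GRCm38.p6, written 5′ to 3′ on the strand of the gene. Capitals mark CCACCC, the core of the Gli binding motif, on either strand.
Gli3 (chr13:15463473-15463722, plus strand): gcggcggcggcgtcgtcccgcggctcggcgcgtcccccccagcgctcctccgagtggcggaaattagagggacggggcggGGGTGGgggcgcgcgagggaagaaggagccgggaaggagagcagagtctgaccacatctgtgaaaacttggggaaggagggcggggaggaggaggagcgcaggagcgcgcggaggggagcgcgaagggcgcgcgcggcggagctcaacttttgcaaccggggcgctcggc
Smo (chr6:29735247-29735496, plus strand): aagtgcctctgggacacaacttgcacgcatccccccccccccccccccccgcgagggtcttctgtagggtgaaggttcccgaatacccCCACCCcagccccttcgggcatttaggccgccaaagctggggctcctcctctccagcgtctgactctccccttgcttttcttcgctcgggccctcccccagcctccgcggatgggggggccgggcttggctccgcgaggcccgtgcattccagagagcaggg
Sufu (chr19:46396646-46396895, plus strand): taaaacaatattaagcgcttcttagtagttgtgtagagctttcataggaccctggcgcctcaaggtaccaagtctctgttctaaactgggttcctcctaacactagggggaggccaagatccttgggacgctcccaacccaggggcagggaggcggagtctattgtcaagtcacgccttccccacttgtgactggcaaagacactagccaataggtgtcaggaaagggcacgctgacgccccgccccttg
Ptch1 (chr13:63565736-63565985, minus strand): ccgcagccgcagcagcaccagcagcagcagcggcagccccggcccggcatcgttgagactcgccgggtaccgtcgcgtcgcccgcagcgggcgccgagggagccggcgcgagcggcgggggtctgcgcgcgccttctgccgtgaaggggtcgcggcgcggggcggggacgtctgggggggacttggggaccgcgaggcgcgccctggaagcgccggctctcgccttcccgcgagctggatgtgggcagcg
The core stood once in the Gli3 window, 170 bases before the start, and once in the Smo window, 162 bases before it. These 6 letters were not in the Sufu or Ptch1 windows. In the windows not printed here they occurred 2 times each for Ihh and Gli2, and 1 time each for Dhh and Hhip. The whole motif GACCACCCA was in none of the 8 windows found for the genes described here. Gli1 had no entry. The RefSeq starts used for Gli3 and Ptch1 lie inside the regions that the deposited table gives for these genes, so they are not the only starts. Among 32851 RefSeq promoter windows of the same length, 0.225% held the whole motif and 28.1% held the core, so a core match is common, and a match is a description of the letters and not of binding.

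Library totals ran from 25407492 to 41616275 counts, and 3 counts, taken as the floor of detection, came to 0.0754 to 0.128 CPM. CPM here means counts relative to library size after TMM scaling, which corrects for libraries in which a few genes take many reads. The 12 endocrine marker genes were detected at every age, as the islet label calls for, but their summed level fell from 22150 to 23164 CPM at 4 weeks to 11065 to 13782 CPM at 12 weeks. Over the same ages the summed level of 19 leukocyte genes went from 103 to 628 CPM to 3781 to 4997 CPM, and that of 14 mesenchymal genes from 643 to 864 CPM to 1695 to 2523 CPM. In bulk tissue, fewer cells of a type and less RNA per cell cannot be told apart. Replicate 2 at 6 weeks and replicate 1 at 12 weeks carried RNA of intestinal epithelium genes, with 988 and 6861 counts of Alpi, Sis and Fabp2 together, against 0 to 2 in the other 13 mice. Results that rest on these mice are given with and without them.

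Per length of transcript, as given by the TPM values of the deposited table, Ptch1 was the most abundant of the 9 genes at every age, with a mean of 13.3 TPM at 4 weeks and 15.3 TPM at 12 weeks. Sufu and Smo followed, at 3.61 and 3.57 TPM at 4 weeks and 7.96 and 8.92 TPM at 12 weeks, and the ranges of the 2 genes overlapped at both ages. Dhh, Gli2 and Gli1 came next at 0.737, 0.527 and 0.382 TPM at 4 weeks, with overlap between neighbours in that order. Gli3 (0.068 TPM), Ihh (0.0407 TPM) and Hhip (0.011 TPM) were lowest at 4 weeks. At 12 weeks Gli3 stood at 0.525 TPM and was still below Gli2 (1.15 TPM) in every mouse. No Gli gene exceeded 1.55 TPM in any mouse, while Ptch1 was at 13.1 TPM or more in each.

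**Figure D1:**
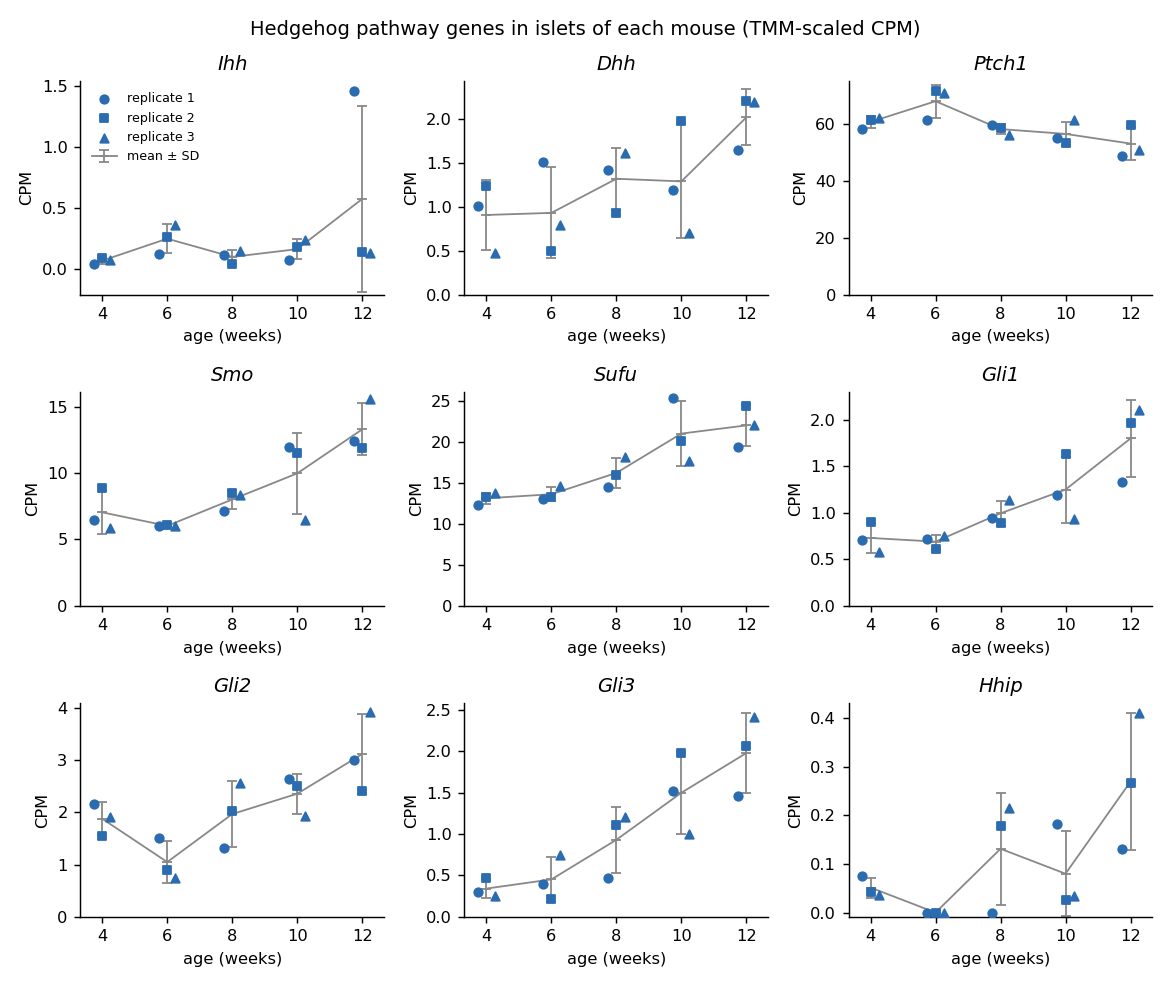
TMM-scaled CPM (vertical axis, linear, its own range in each panel) of the 9 genes against age in weeks; symbols are single mice by replicate number, and the gray line with bars is the mean ± SD of 3 mice. Gli1, Gli3, Smo and Sufu lie higher in all 3 mice at 12 weeks than in any mouse at 4 weeks, Ptch1 stays between 48.9 and 71.6 CPM throughout, and the mean of Ihh at 12 weeks is set by a single mouse at 1.46 CPM.

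Of the 9 genes, 7 had enough counts for a test across ages, and Ihh and Hhip were dropped by the filter on low counts. In the edgeR quasi-likelihood fit over all 15 mice, 4 of the 7 were higher at 12 than at 4 weeks at an adjusted p under 0.05 (Gli1, Gli3, Smo and Sufu), and 0 were lower. Over all 16554 genes tested the same call was made for 53.5% in either direction, 26.3% higher and 27.2% lower. The share of the 7 genes called, 57.1%, was thus near the background in either direction, and all 4 calls were increases. Dhh and Gli2 were also higher in every mouse but had adjusted p = 0.0522 and 0.0586, and Ptch1 had a log2 fold change of -0.19 with adjusted p = 0.0719. By the threshold used in the study, a fold change of at least 1.5 with an unadjusted p under 0.05, 6 of the 7 were higher, where the background was 20.9%. For the same 6 genes the 3 mice at 12 weeks did not overlap the 3 at 4 weeks, against 30.3% of all genes tested. The median log2 fold change was 0.92 over the 7 genes and -0.0481 over all genes tested. The study had already reported Ihh, Smo, Sufu, Gli1 and Gli3 as higher at 12 than at 4 weeks in these same data. The genes described here were chosen with earlier results of these data known. Their shares and median are therefore a description and not a test of the pathway. Scaling by library totals instead of TMM raised the median of all genes by 0.245 on the log2 scale, so the changes below are relative to the TMM center.

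Among the ligands, Dhh, which is best known from Sertoli cells and from Schwann cells of peripheral nerve, was low and variable. At 4 weeks the 3 mice had 1.01, 1.24 and 0.47 CPM (27, 29 and 13 counts), and at 6 weeks 1.51, 0.5 and 0.788 CPM. At 8 weeks they had 1.42, 0.927 and 1.61 CPM, at 10 weeks 1.19, 1.98 and 0.698 CPM, and at 12 weeks 1.65, 2.21 and 2.2 CPM. The 12-week mice lay above the 4-week mice, the 6- and 8-week mice overlapped those of 4 weeks, and the 10-week mice overlapped both ends. The log2 fold change at 12 against 4 weeks was 1.16 ± 0.468 (SE; 2.02 ± 0.318 against 0.907 ± 0.395 CPM, mean ± SD, n = 3 mice each), with an adjusted p of 0.0522 in edgeR. It passed 0.05 in 7 of 14 alternatives to this fit that had no covariate, so the call depends on the setting. No change over the 5 ages was called for Dhh (adjusted p = 0.177).

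Ihh, the ligand of cartilage and gut epithelium, was at or near the floor of detection in most mice. Counts of Ihh were 1, 2 and 2 at 4 weeks, 3, 10 and 9 at 6 weeks, and 3, 1 and 4 at 8 weeks. At 10 weeks they were 2, 7 and 7, and at 12 weeks 45, 4 and 4. The 45 counts came from replicate 1 at 12 weeks, the mouse with the most intestinal RNA, where 17 of the 20 intestinal genes had over 3 counts. In that library Alpi, an alkaline phosphatase of the gut brush border, had 3623 counts and Cdx2, a transcription factor of intestinal epithelium, had 89. The other mouse with intestinal RNA, replicate 2 at 6 weeks, had 10 counts of Ihh, 461 of Alpi and 15 of the 20 genes over 3 counts. Replicate 3 at 6 weeks had 9 counts of Ihh with 0 of Alpi, Sis and Cdx2 and 1 of Fabp2, and 5 of the 20 genes over 3 counts.

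Summed over the 3 mice of an age and scaled by library size, Ihh was 8.9-fold higher at 12 than at 4 weeks (53 against 5 counts, 95% exact interval of the ratio 3.58 to 28.5, counting error only). Without replicate 1 at 12 weeks the ratio was 2.02 (8 against 5 counts, interval 0.581 to 7.83). The mean level at 12 weeks went from 0.573 to 0.13 CPM when that mouse was left out. In an edgeR fit with no filter on low counts, Ihh had a log2 fold change of 3.06 at 12 against 4 weeks with an adjusted p of 0.0245, a value that includes that mouse. Whether the Ihh counts of that library came from intestinal RNA was not tested. A difference in Ihh between the other mice of 4 and 12 weeks was not detectable at this depth.

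**Figure D2:**
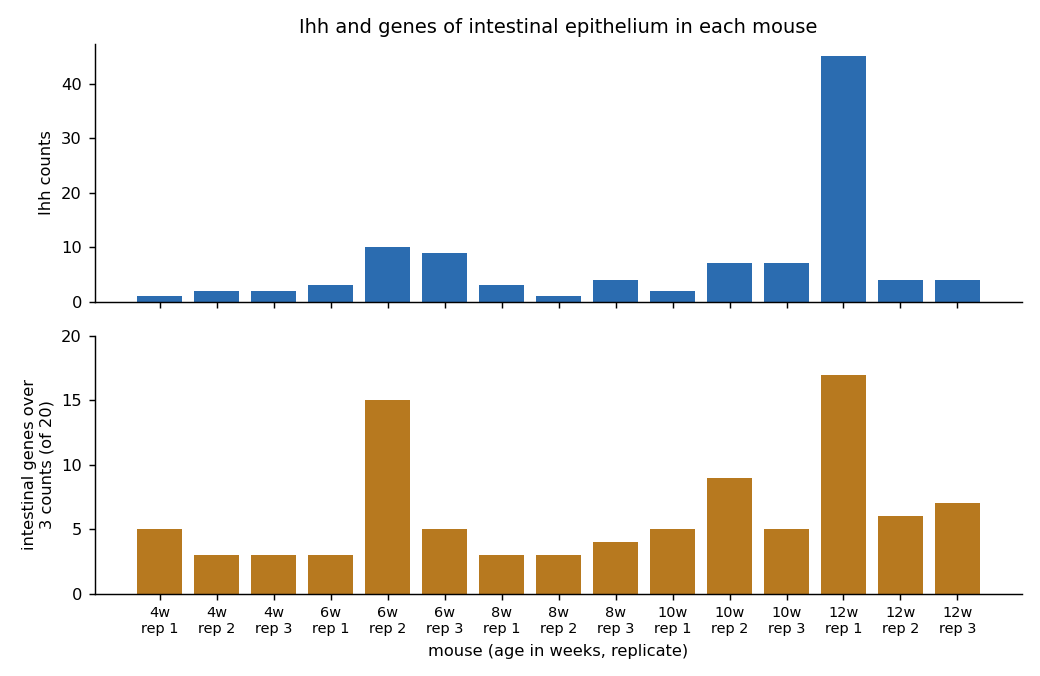
Counts of Ihh (top) and the number of 20 intestinal epithelium genes with over 3 counts (bottom) in each of the 15 mice, ordered by age and replicate. The mouse with 45 Ihh counts, 12 weeks replicate 1, has 17 of the 20 intestinal genes over 3 counts, and 6 weeks replicate 2 has 10 Ihh counts and 15 such genes.

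Ptch1, the receptor that binds the ligands and represses Smo, showed the smallest change of the 7 genes tested and the highest counts (1438 to 2720 per mouse). Its level was 58.3, 61.5 and 62.2 CPM at 4 weeks, 61.3, 71.6 and 71 CPM at 6 weeks, and 59.7, 58.5 and 56.2 CPM at 8 weeks. It was 55, 53.2 and 61.4 CPM at 10 weeks and 48.9, 59.6 and 50.7 CPM at 12 weeks. The groups at 4 and 12 weeks overlapped through replicate 2 at 12 weeks. At 12 against 4 weeks the log2 fold change was -0.19 ± 0.0848 (SE; 53.1 ± 5.74 against 60.7 ± 2.05 CPM), and with library totals it was 0.05, so the direction depended on the scaling. Without replicate 2 at 12 weeks it was -0.29, and Ptch1 was then called lower (adjusted p = 0.0127). In the test of any change over the 5 ages Ptch1 was called (adjusted p = 0.0254), with its highest mean, 68 ± 5.78 CPM, at 6 weeks.

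Smo, the membrane protein that passes the signal on, was flat at first and then higher. It had 6.44, 8.85 and 5.83 CPM at 4 weeks and 5.98, 6.05 and 6.03 CPM at 6 weeks. It had 7.15, 8.52 and 8.36 CPM at 8 weeks, 12, 11.5 and 6.45 CPM at 10 weeks, and 12.4, 11.9 and 15.6 CPM at 12 weeks. All 3 mice at 12 weeks were above all mice at 4, 6 and 8 weeks, and replicate 3 at 10 weeks stayed in the range of the youngest mice. Smo rose 1.89-fold between 4 and 12 weeks (log2 fold change 0.92 ± 0.218, adjusted p = 0.00383), with 7.04 ± 1.6 CPM at 4 weeks and 13.3 ± 1.96 CPM at 12 weeks.

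Hhip, a membrane protein that binds Hedgehog ligands and is itself a target of the pathway, was at the floor in most mice. It had 2, 1 and 1 counts at 4 weeks, 0 in all mice at 6 weeks and 0, 5 and 6 at 8 weeks. It had 5, 1 and 1 at 10 weeks and 4, 8 and 13 at 12 weeks. Only at 12 weeks were all 3 mice above 3 counts. The ratio of 12 to 4 weeks was 5.25 (25 against 4 counts, 95% exact interval 1.81 to 20.8, counting error only), and in the edgeR fit with no filter Hhip did not pass (adjusted p = 0.109). It was too low for a search of genes with a like pattern.

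Sufu, the cytoplasmic inhibitor that holds the Gli proteins, was higher at the older ages. Its level was 12.3, 13.2 and 13.7 CPM at 4 weeks, 13, 13.3 and 14.6 CPM at 6 weeks, and 14.5, 16 and 18.1 CPM at 8 weeks. At 10 weeks it was 25.4, 20.1 and 17.6 CPM and at 12 weeks 19.4, 24.4 and 22 CPM. Every mouse at 10 and 12 weeks was above every mouse at 4 and 6 weeks. Between 4 and 12 weeks Sufu rose 1.68-fold, by 0.75 ± 0.135 on the log2 scale (adjusted p = 0.000817; 13.1 ± 0.706 CPM against 22 ± 2.5 CPM).

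Gli1, an activator and the usual readout of Hedgehog activity, rose 2.47-fold between 4 and 12 weeks. It had 0.711, 0.898 and 0.579 CPM at 4 weeks (19, 21 and 16 counts), 0.713, 0.605 and 0.749 CPM at 6 weeks, and 0.948, 0.891 and 1.14 CPM at 8 weeks. It had 1.19, 1.63 and 0.931 CPM at 10 weeks and 1.33, 1.97 and 2.11 CPM at 12 weeks (41, 59 and 67 counts). The 12-week mice were above all mice of 4, 6 and 8 weeks, and they overlapped those of 10 weeks. The log2 fold change was 1.31 ± 0.277 with an adjusted p of 0.00202 (0.729 ± 0.16 against 1.8 ± 0.416 CPM).

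At its 3′ end Gli1 (chromosome 10, 127329889 to 127341589, minus strand) shares 55 bases with Arhgap9 on the plus strand, a GTPase-activating protein of leukocytes. Whether the counting used strand is not given in the sources used here, and without strand the reads of the 2 genes cannot be told apart in those bases. Arhgap9 had 3.07, 1.11 and 0.217 CPM at 4 weeks and 27.6, 22.9 and 30 CPM at 12 weeks. Gli1 was low against Arhgap9 in older mice, with a mean log2 ratio of -3.86 ± 0.41 at 12 weeks and -0.37 ± 1.6 at 4 weeks (SD; exact permutation p = 0.1, the smallest that 3 against 3 mice allow). The mouse with the most Arhgap9 was also the mouse with the most Gli1 at 6, 8 and 12 weeks, but not at 4 and 10 weeks. The part of Arhgap9 reads in the Gli1 counts was not tested.

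Gli2, the main activator of the pathway, had its lowest mean at 6 weeks, though the step from 4 to 6 weeks did not pass adjustment. Its level was 2.17, 1.54 and 1.92 CPM at 4 weeks, 1.51, 0.894 and 0.749 CPM at 6 weeks, and 1.31, 2.03 and 2.57 CPM at 8 weeks. It was 2.64, 2.51 and 1.93 CPM at 10 weeks and 3.01, 2.41 and 3.93 CPM at 12 weeks. All mice at 6 weeks were below all mice at 4 weeks, by a narrow margin in replicate 1, and all mice at 12 weeks were above those at 4 weeks. The log2 fold change at 12 against 4 weeks was 0.73 ± 0.304 (adjusted p = 0.0586), and it passed 0.05 in 6 of 14 alternatives without a covariate. Over the 5 ages a change of Gli2 was called (adjusted p = 0.0111).

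Gli3, known mainly for its repressor form, had the largest fold change of the 7 genes tested. It had 0.299, 0.47 and 0.253 CPM at 4 weeks (8, 11 and 7 counts), 0.396, 0.21 and 0.749 CPM at 6 weeks, and 0.474, 1.11 and 1.21 CPM at 8 weeks. It had 1.52, 1.98 and 0.997 CPM at 10 weeks and 1.46, 2.07 and 2.42 CPM at 12 weeks (45, 62 and 77 counts). The mice at 10 and 12 weeks were all above those at 4 and 6 weeks, and the 8-week mice reached across the gap. Gli3 rose 5.81-fold between 4 and 12 weeks (log2 fold change 2.54 ± 0.491, adjusted p = 0.00121; 0.341 ± 0.114 against 1.98 ± 0.487 CPM). The log2 ratio of Gli3 to Gli2 within a mouse went from -2.27 ± 0.6 to -0.64 ± 0.4 (SD, n = 3 each) with no overlap, and that of Gli1 to Gli3 from 0.98 ± 0.12 to -0.13 ± 0.06, also with no overlap (exact permutation p = 0.1 for both). Both of these ratios share Gli3. The ratio of Gli1 to Gli2 went from -1.29 ± 0.48 to -0.77 ± 0.44 with overlap (exact permutation p = 0.3).

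The activator targets and the receptor were set against each other within mice, since Gli1, Ptch1 and Hhip are all targets of the pathway. The log2 ratio of Gli1 to Ptch1 was -6.27 ± 0.3 at 4 weeks and -4.85 ± 0.29 at 12 weeks, a difference of 1.42 with no overlap between the ages. These ratios share Ptch1. All 6 ratios of another tested gene to Ptch1 were higher at 12 weeks with no overlap, with differences from 0.9 for Gli2 to 2.53 for Gli3. The exact permutation p was 0.1 for each, which is the smallest this design can give. In CPM the same 6 genes were already higher at 12 weeks with no overlap, as were 30.3% of all genes tested. Ptch1 itself moved by only -0.20 in mean log2 CPM, so these ratios largely repeat the changes of the 6 genes. The share of all genes whose ratio to Ptch1 did not overlap was not computed.

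Each step of 2 weeks was tested in the same fit to show where the change fell. At 6 against 4 weeks edgeR called 0 of the 7 genes after adjustment and 1 before it (p under 0.05). Of all 16554 genes, 15 were called after adjustment and 1435 before it. By the fold and p threshold of the study 1 of the 7 was called, against a background of 2.90%. That gene was Gli2, lower at 6 weeks (log2 fold change -0.84 ± 0.317, adjusted p = 0.441). The call was lost without replicate 1 at 4 weeks, replicate 2 at 6 weeks or replicate 3 at 6 weeks, where the log2 fold change was -0.73, -0.73 and -0.66.

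At 8 against 6 weeks, the step with the most calls among the 7 genes, edgeR called 0 after adjustment and 3 before it. Of all 16554 genes, 0 were called after adjustment and 2983 before it. By the threshold of the study 2 of the 7 genes were called, against a background of 9.82%. These were Gli2 (log2 fold change 0.91 ± 0.316, adjusted p = 0.196) and Gli3 (1.07 ± 0.482, adjusted p = 0.267), both higher at 8 weeks. Gli2 lost its call without replicate 3 at 6 weeks (0.73) or replicate 3 at 8 weeks (0.68). Gli3 lost its call when replicate 1 or 2 at 6 weeks (1 and 0.70) or replicate 2 or 3 at 8 weeks (0.95 and 0.83) was left out. Ptch1 was lower at 8 weeks by -0.22 on the log2 scale (adjusted p = 0.212), under the fold threshold.

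At 10 against 8 weeks 0 of the 7 genes were called by the threshold of the study, where the background was 13.9%. After adjustment edgeR called none of them, against 16.8% of all genes. Before adjustment it called 1, against 6268 of all 16554 genes. That gene was Sufu, with a log2 fold change of 0.37 ± 0.133 (adjusted p = 0.0671). DESeq2 called 1 of the 7 genes at this step after adjustment, also Sufu, against 25.1% of all genes. The edgeR exact test called 0, against 0.881% of all genes. Library totals also called Sufu alone, against 14% of all genes. Leaving out replicate 3 at 8 weeks called Sufu (log2 fold change 0.46, adjusted p = 0.0476), where 20.2% of all genes were called. Leaving out replicate 3 at 10 weeks called Sufu (0.49, adjusted p = 0.0163) and Smo (0.55, adjusted p = 0.029), where 33.3% of all genes were called. At 12 against 10 weeks 0 of the 7 genes were called before adjustment and 0 after. Of all 16554 genes, 1245 were called before adjustment and 0 after. By the threshold of the study none of the 7 was called, against a background of 2.17%. Gli1 passed that threshold when replicate 2 at 10 weeks or replicate 1 at 12 weeks was left out (log2 fold change 0.76 and 0.69, against 0.52 ± 0.264 in all mice). DESeq2 and the edgeR exact test called 0 of the 7 genes after adjustment at 6 against 4, 8 against 6 and 12 against 10 weeks. Over all genes the shares called at these steps were 1.48%, 3.37% and 0.0725% with DESeq2. With the exact test they were 1.74%, 1.01% and 0.0434%. When all 5 ages were tested together, 6 of the 7 genes were called (85.7%), all but Dhh, where the background was 56.0%.

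The change of the Hedgehog genes was set beside that of cell type marker lists, which were drawn up from general knowledge. From 4 to 12 weeks the mean log2 CPM of the leukocyte list rose by 5.01 and that of the mesenchymal list by 1.8, while that of the endocrine list fell by 0.84. Over all genes tested at 12 against 4 weeks, 26.3% were called higher and 27.2% lower, the shares to set beside the counts that follow. Of these lists 19 of 19, 12 of 14 and 0 of 12 genes were called higher, and 11 of 12 endocrine genes were called lower. The Schwann cell list had 6 of 10 genes higher and the endothelial list 5 of 10, with 1 lower. The ductal list had 3 of 8 genes higher and 3 lower, and the summed level of the acinar list ran from 1346 to 15823 CPM between mice. The mean log2 CPM of the mesothelial list rose by 1.85, with 3 of 4 tested genes higher and 1 lower, while its summed level went from 130 to 179 CPM at 4 weeks to 16 to 25.4 CPM at 12 weeks. The part of these cell types in the Hedgehog values was not tested. Gli3 changed by 2.33 on that log2 scale, Gli1 by 1.22, Dhh by 1.18, Smo by 0.93, Sufu by 0.74 and Gli2 by 0.7, which put all but Gli3 below the mesenchymal list. Relative to the mesenchymal list, the log2 ratio of Gli3 moved by 0.53 and those of Gli1 and Dhh by -0.58 and -0.62, with overlap between 4 and 12 weeks (exact permutation p = 0.2 each). Those of Gli2, Smo, Sufu and Ptch1 moved by -1.1, -0.88, -1.06 and -2 with no overlap (exact permutation p = 0.1 each). Relative to the endocrine list, all 7 ratios were higher at 12 weeks with no overlap, from 0.64 for Ptch1 to 3.17 for Gli3. Relative to the leukocyte list, all 7 were lower with no overlap, from -2.68 for Gli3 to -5.21 for Ptch1. Relative to the Schwann cell list, Gli3 was higher (1.61) and Ptch1 lower (-0.92) with no overlap, and the other 5 overlapped, with differences from -0.02 for Gli2 to 0.5 for Gli1. The median log2 fold change over all genes tested was -0.0481. Since the lists themselves moved, a gene with no change would also rise against the endocrine list and fall against the leukocyte and mesenchymal lists. The share of all genes without overlap was not computed for these ratios.

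**Figure D3:**
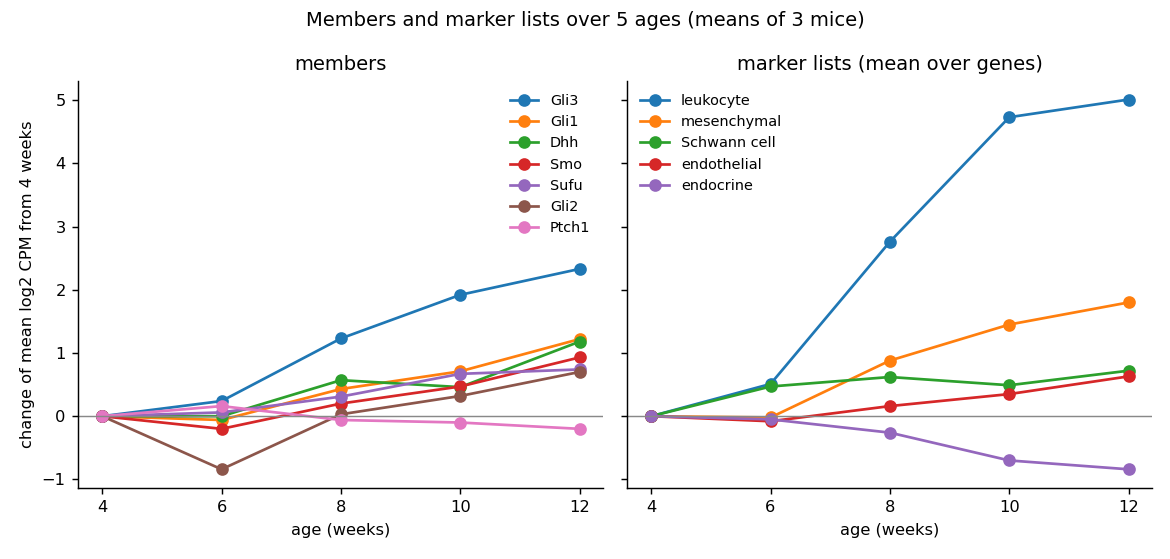
Change of the mean log2 CPM from its 4-week value (vertical axis) against age in weeks, for the 7 tested genes (left) and for the mean of each marker list (right); each point is a mean over 3 mice. Gli3 reaches 2.33 and Ptch1 -0.2 at 12 weeks, while the leukocyte list reaches 5.01, the mesenchymal list 1.8 and the endocrine list -0.84.

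When the mean of the leukocyte list was put into the edgeR fit as a covariate, 0 of the 7 genes were called at 12 against 4 weeks, whether or not p was adjusted. The log2 fold changes were then 0.55 ± 0.859 for Gli3, 0.86 ± 0.612 for Gli1, 0.43 ± 0.436 for Smo and 0.41 ± 0.264 for Sufu. With the mesenchymal list as covariate they were 0.1 ± 0.762, 0.33 ± 0.567, -0.1 ± 0.384 and 0.32 ± 0.273, again with 0 calls. Both lists run closely with age. With the leukocyte and the mesenchymal covariate, 3 and 0 of the 16554 genes were called at 12 against 4 weeks after adjustment. Before adjustment (p under 0.05), 1678 and 1186 were called. Most genes were thus not called in either fit, and 0 of 7 does not set these genes apart. Cell composition and age therefore cannot be told apart by such a fit.

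Within an age, the genes were also set against the marker lists and against Atf3, the stress-response transcription factor of these islets (log2 fold change 2.13 ± 0.294 at 12 against 4 weeks, adjusted p = 0.000274). Age means were subtracted from log2 CPM, and each of 42 relations over 15 mice was tested by all 7776 rearrangements within ages. None passed 0.05 after adjustment and 8 did before it. Smo went against the endocrine list (Pearson r = -0.82, exact permutation p = 0.00579, adjusted p = 0.167; Spearman coefficient = -0.71, p = 0.0166, adjusted p = 0.253), with r = -0.61 after the 2 mice farthest from the median were left out. Gli3 went with the mesenchymal list (r = 0.78, exact permutation p = 0.00797, adjusted p = 0.167; Spearman coefficient = 0.65, p = 0.028, adjusted p = 0.253), and with r = 0.69 after the same step. Gli1 had r = 0.62 with the mesenchymal list (exact permutation p = 0.0529, adjusted p = 0.219) and 0.31 with the leukocyte list. With Atf3, r ran from -0.55 for Ptch1 to 0.6 for Smo, and no unadjusted p was below 0.0746 by exact permutation. The relation of Smo passed adjustment when library totals were used (adjusted p = 0.0054), and that of Gli2 with the endocrine list passed without replicate 3 at 6 weeks (adjusted p = 0.0486).

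**Figure D4:**
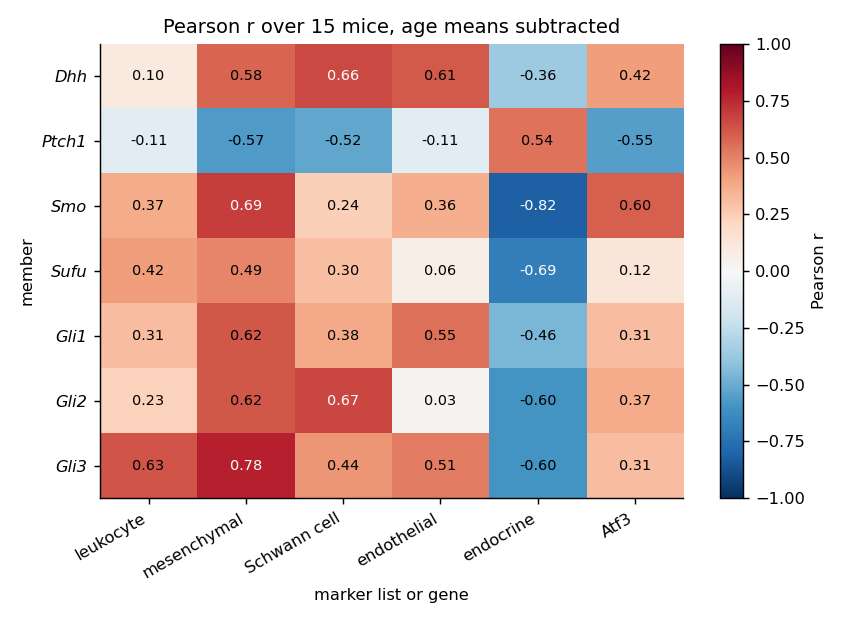
Pearson r over 15 mice, after subtraction of age means from log2 CPM, between each of the 7 tested genes (rows) and 5 marker lists and Atf3 (columns); the color scale runs from -1 to 1. The lowest value is -0.82 for Smo with the endocrine list and the highest 0.78 for Gli3 with the mesenchymal list, and none of the 42 relations passed adjustment.

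The genes whose deviations within ages were most like those of Gli1, among all genes tested, were Bok (r = 0.92), a Bcl2-family protein, Gas6 (r = 0.88), a ligand of TAM receptors, and Prickle2 (r = 0.88), a planar polarity protein. For Dhh they were Gata2 (r = 0.95), a transcription factor of endothelial and blood cells, 4930578C19Rik (r = 0.91) and Adm (r = 0.91), the vasoactive peptide adrenomedullin. These values describe 15 mice and the best of 16554 genes, and no p is given for them.

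The wider pathway was described by 35 further genes, of which 33 had enough counts for a test. At 12 against 4 weeks 22 of the 33 were called at an adjusted p under 0.05 (66.7%), 10 higher and 12 lower, with a median log2 fold change of -0.09. With library totals 14 were called, 12 higher and 2 lower, so the balance of directions depended on the scaling. Over all genes tested 53.5% were called, 26.3% higher and 27.2% lower, and with library totals 6556 genes were called higher and 1820 lower, the same shift toward increases. Shh, the third Hedgehog ligand, and Foxl1, a Gli target of gut mesenchyme, were dropped for low counts.

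Among the genes for ligand release and coreceptors, 4 of 10 rose and 2 fell, where 26.3% of all genes rose and 27.2% fell. Lrp2, an endocytic receptor that also takes up Hedgehog ligand, rose most by the fit (log2 fold change 3.74 ± 0.778, adjusted p = 0.00182), but it had only 1, 1 and 3 counts at 4 weeks against 20, 16 and 49 at 12 weeks. The ratio of its summed counts was 14.3 (95% exact interval 5.88 to 45.1, counting error only). The coreceptors Gas1 and Boc rose by 1.84 ± 0.269 (adjusted p = 0.00034) and 1 ± 0.217 (adjusted p = 0.00235). Scube3, a secreted protein that helps release ligand, rose by 1.46 ± 0.337 (adjusted p = 0.00336), and the third coreceptor, Cdon, did not pass (-0.21 ± 0.0992, adjusted p = 0.0976). Hhat, which attaches palmitate to the ligands, fell (-0.59 ± 0.233, adjusted p = 0.0477), and its call held in 4 of 14 alternatives without a covariate.

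Of the regulators of Smo and Gli, 4 of 13 rose and 6 fell, against the same 26.3% and 27.2% of all genes. Evc and Evc2, a pair of proteins at the base of the cilium that relay the signal from Smo, rose by 1.16 ± 0.199 (adjusted p = 0.000649) and 1.43 ± 0.208 (adjusted p = 0.000322). Adrbk1, a kinase that acts on Smo, rose by 0.72 ± 0.131 (adjusted p = 0.000897). Kif7, a ciliary kinesin that controls Gli, rose by 1.02 ± 0.371 (adjusted p = 0.0336), in 8 of 14 alternatives, and its exons overlap those of Ticrr on the other strand. Stk36, a kinase of the Fused family, fell by 0.59 on the log2 scale (adjusted p = 0.0039). The other 5 that fell were Cul3, Gpr161, Prkaca, Csnk1a1 and Btrc, which include kinases and ubiquitin ligase parts that turn Gli proteins into repressors, with log2 fold changes from -0.19 for Cul3 to -0.5 for Btrc. These falls are relative to the TMM center, and with library totals only 2 of the 33 further genes were called lower. From 4 to 12 weeks mean TPM rose for Cul3 (60.8 to 69.7) and Csnk1a1 (66 to 74.5). It fell for Gpr161 (5.08 to 4.73), Prkaca (114 to 110) and Btrc (22.8 to 21.1).

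The 6 cilium genes moved little. None rose and 3 fell (27.2% of all genes fell), of which Ift80 fell most (-0.37 ± 0.0682, adjusted p = 0.000894). With library totals Ift80 was at -0.13 (adjusted p = 0.138), and with TMM the median log2 fold change of the 6 was -0.28. Of 4 further Gli targets tested, 2 rose and 1 fell, against 26.3% and 27.2% of all genes. Foxf1, a transcription factor of visceral mesenchyme, rose by 1.27 ± 0.18 (adjusted p = 0.000305); its level was 2.29 ± 0.311 CPM at 4 weeks and 5.51 ± 0.623 CPM at 12 weeks. Bcl2, a survival protein that lymphocytes also express, rose by 1.56 ± 0.232 (adjusted p = 0.000348). Ccnd2 fell by 0.58 on the log2 scale (adjusted p = 0.00117) and Ccnd1 did not pass (0.27 ± 0.133, adjusted p = 0.0997); both are cyclins that beta cells use to divide.

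**Figure D5:**
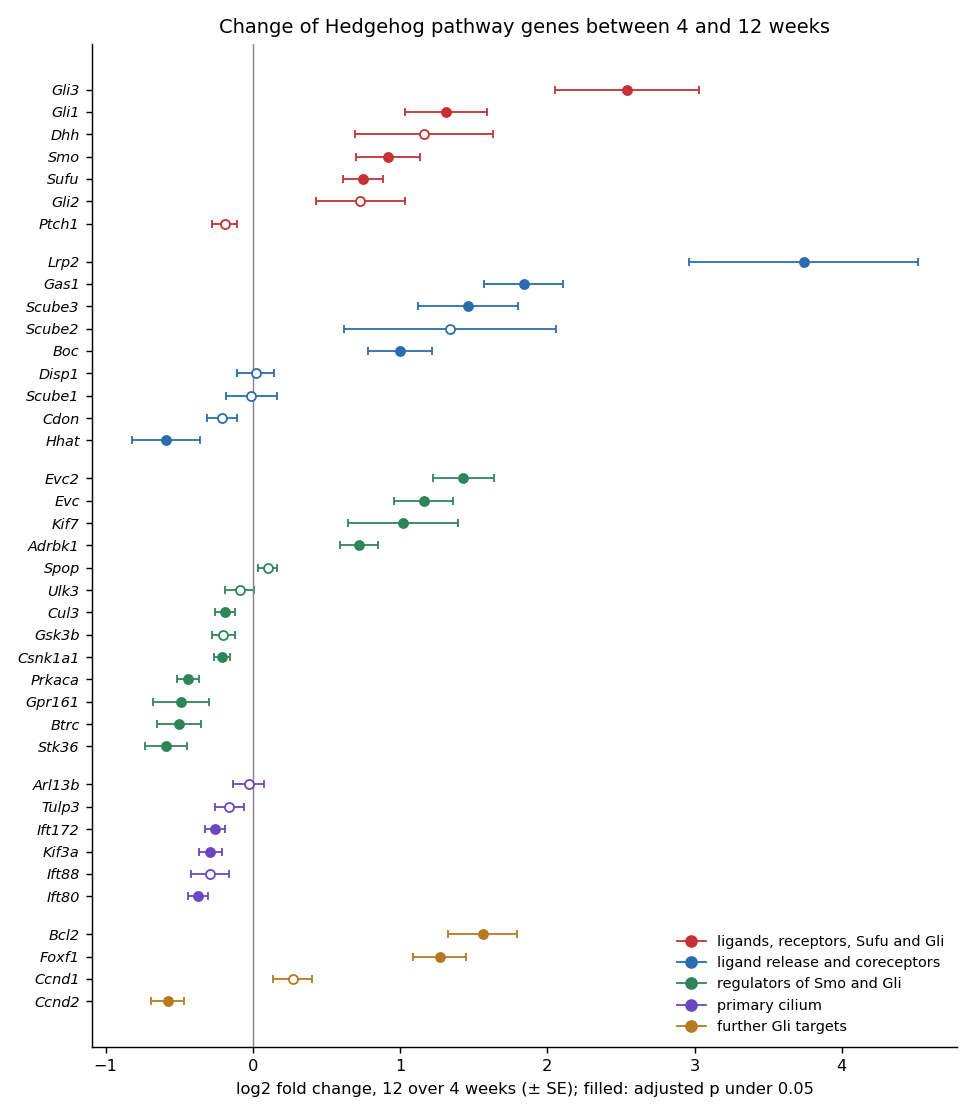
Log2 fold change at 12 over 4 weeks (horizontal axis; bars are ± SE from the edgeR fit over 15 mice) for the 7 tested Hedgehog genes and further pathway genes, grouped by role; filled points have an adjusted p under 0.05. Gli3 at 2.54 leads the first group, Lrp2 at 3.74, with 1 to 3 counts in each 4-week mouse, has the largest value and one of the widest bars, and the cilium genes lie between -0.37 and -0.03.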

How the data were processed

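RNA of pancreatic islets from 15 mice was measured by sequencing of polyadenylated RNA. Per the methods of the study, the authors trimmed, aligned and counted reads with the default settings of CLC Genomics Workbench. The deposited counts are whole reads per gene and the deposited TPM values are counts scaled by the authors for transcript length and library total. The submitters' notes name the build mm10, which fits the regions in the table. The other 30 per-sample columns (RPKM and CPM) were not used.

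The counts were fitted with edgeR 4.0.16 in R 4.3.3 (filterByExpr, TMM, glmQLFit with a mean per age, no covariate) and tested by glmQLFTest, two-sided, with Benjamini-Hochberg adjustment over 16554 genes. CPM are TMM-scaled, log2 CPM used a prior count of 2, and the errors printed after fold changes are SE of the fit. The test was also run on simulated counts for the 12 against 4 week comparison. Among 16338 genes, 67, 67 and 66 were changed 1.5-, 2- and 4-fold. It called 31.3%, 68.7% and 97% of these, and 4 unchanged genes. The adjustment depends on how many genes change, and 53.5% were called at this comparison in the mice. These rates therefore do not describe the power of the test in the mice. Single ratios were compared by exact permutation of the mice. Alternatives were DESeq2 1.42.0 and its size factors, library totals, no filter, the 2 ages alone, the edgeR exact test, each mouse left out, the replicate number as a block, and a leukocyte or mesenchymal covariate. Leaving out both mice with intestinal counts was added after seeing the data. The members and gene lists were chosen with earlier results of these data known. Named genes are every member, Atf3, for Gli1 and Dhh the 3 genes with the most similar deviations, and other pathway genes with an adjusted p under 0.05 and a fold change of at least 1.5, or the largest of each list. Cdon, Ccnd1, Ccnd2, Cul3, Gpr161, Prkaca, Csnk1a1, Btrc and Arhgap9 were named after their values were seen. A gene that falls under this rule is not reported here. Replicates are separate mice, and no 2 libraries of an age agreed within sampling noise (chi-square per degree of freedom 15.9 to 127).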

Additional observations from a re-analysis of the deposited data

How the results depend on the processing

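Gli1, Gli3, Smo and Sufu kept their direction and an adjusted p under 0.05 at 12 against 4 weeks under all 14 alternatives without a covariate. With the leukocyte or the mesenchymal list as covariate, the counts called were 0 of 7 over the 5 ages, 0 at 12 against 4 weeks, 0 at 8 against 6 weeks, and 0 of the 33 further pathway genes, of which library totals called 14. Of all 16554 genes, 76 and 182 were called over the 5 ages with these covariates, and 3 and 0 at 12 against 4 weeks. By the threshold of the study 593 and 410 were called at 8 against 6 weeks. With the mesenchymal covariate the log2 fold change at 12 against 4 weeks was reversed to -0.57 for Dhh, -0.56 for Gli2, -0.10 for Smo, 0.11 for Ptch1, 0.34 for Hhat, -0.38 for Scube3 and -0.15 for Kif7, and that of Gli3 at 8 against 6 weeks to -0.16; with the leukocyte covariate Kif7 was -0.73, and with library totals Ptch1 was 0.05. The cause was not tested. By the threshold of the study, 1 gene was called at 8 against 6 weeks with the 2 ages alone, the edgeR exact test or the replicate block. In that order the same threshold called 1140 of 15520, 1268 of 15520 and 1389 of 16554 genes. Leaving out a mouse gave 0 to 2 at this step, against 927 to 2259 over all genes. At 6 against 4 weeks and at 12 against 10 weeks leaving out a mouse gave 0 to 1, against 446 to 566 and 312 to 544 over all genes. These fits tested 16741 to 16894 genes. At 10 against 8 weeks calls after adjustment ran from 0 to 2 when a mouse was left out, against 0 to 33.3% of all genes. They were 1 with DESeq2 or library totals, against 25.1% and 14% of all genes. Without both mice with intestinal counts the calls were 0 at 6 against 4, 0 at 8 against 6 and 1 at 12 against 10 weeks. Of the 16710 genes tested in that fit, the threshold of the study called 491, 873 and 407 at these steps. After adjustment 4 of the 7 were called over the 5 ages and 5 at 12 against 4 weeks. The shares of all genes were 45.1% and 47.5%. Relations with marker lists that passed adjustment numbered 1 with library totals and 0 to 1 when a mouse was left out. Replicate numbers did not pair the mice: same-numbered mice at 4 and 12 weeks had correlations of 0.0262, 0.102 and -0.159. The replicate block left 6 calls over the 5 ages and 4 at 12 against 4 weeks, against 49.6% and 50.3% of all genes. Depth limits Ihh and Hhip, which were under 14 counts in all mice but the 1 with 45 counts of Ihh.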
